A study of Homo sapiens with 6 samples.

Results

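The genes described here are the cytosolic heat shock proteins and their regulator HSF1, 10 genes picked by symbol through a rule that uses no measured value, although with earlier results of these data known: HSF1, HSPA1A, HSPA1B, HSPA8, HSPH1, DNAJB1, BAG3, HSP90AA1, HSP90AB1 and HSPB1. They are 10 of 28008 genes in the count table, and all 10 were among the 14292 genes with enough reads to be tested. The RNA-Seq libraries were made from DU-145-DR/tet-MUC1shRNA cells, that is, DU-145 cells, a human prostate cancer line, selected in docetaxel (DTX) until resistant and carrying a doxycycline (DOX)-inducible short hairpin RNA against MUC1. Cultures received either 0.1% DMSO as vehicle (DOX-negative, n = 3) or 500 ng/ml DOX (DOX-positive, n = 3). The study gives a week as the length of treatment. Both groups share the DTX-resistant background. The hairpin in the DOX-negative cells is taken from the study, since their titles name no hairpin and their treatment label names resistance alone. The comparison asks which transcripts differ when MUC1 is silenced in DTX-resistant cells, and with no library of a control hairpin with DOX analysed here, silencing and DOX exposure cannot be told apart.

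Cytosolic heat shock proteins are chaperones that bind unfolded or partly folded proteins. HSP70 proteins take up clients delivered by HSP40 (J) proteins, nucleotide exchange factors release them, and many kinases and steroid receptors then pass to HSP90. HSF1 is held inactive in unstressed cells and, on heat or proteotoxic stress, forms trimers that bind heat shock elements, arrays of the letters GAA and TTC, upstream of chaperone genes; cancer cells often depend on this system.

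The libraries held between 15092691 and 23243713 counts, and the floor of detection was set at 3 counts, which is 0.129 to 0.199 CPM depending on the library (CPM being read counts relative to the TMM-scaled library size). MUC1 was at 387, 484 and 396 counts in DOX-negative replicates 1 to 3 and at 75, 74 and 66 counts in the DOX-positive replicates, which edgeR estimated as a log2 fold change of -2.52 with a standard error of 0.146 (adjusted p = 4.47e-11). The epithelial markers KRT8, KRT18, KRT19, EPCAM and CDH1 were each at 536 counts or more in every library. KLK3, CHGA and INSM1 were at 0 counts in all 6 libraries, which allows up to the 3-count floor, and PTPRC, PECAM1 and DCN were at 6 counts or fewer. TMPRSS2 was at 3 counts or fewer, SYP at 2 to 12 and COL1A1 at 66 to 96. These are bulk libraries, so fewer cells carrying a transcript and less of it per cell cannot be told apart.

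In the DOX-positive cells, transcripts of HSPH1, HSPB1, HSP90AA1 and HSPA8 were lower and HSPA1B was higher. The means of HSF1, HSPA1A and DNAJB1 differed by less than the range of replicates within either group. Of the 10 genes, 5 passed an edgeR adjusted p of 0.05, where 26.7% of all genes tested passed. The 1 gene that rose compares with 13.0% of all genes, and the 4 that fell compare with 13.7%. Replicate values did not overlap between the groups for 6 of the 10 genes, against 39.8% of all genes. The median log2 fold change of the 10 genes was -0.08, and that of all genes tested was -0.00336. No change reached a 2-fold difference.

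**Figure D1:**
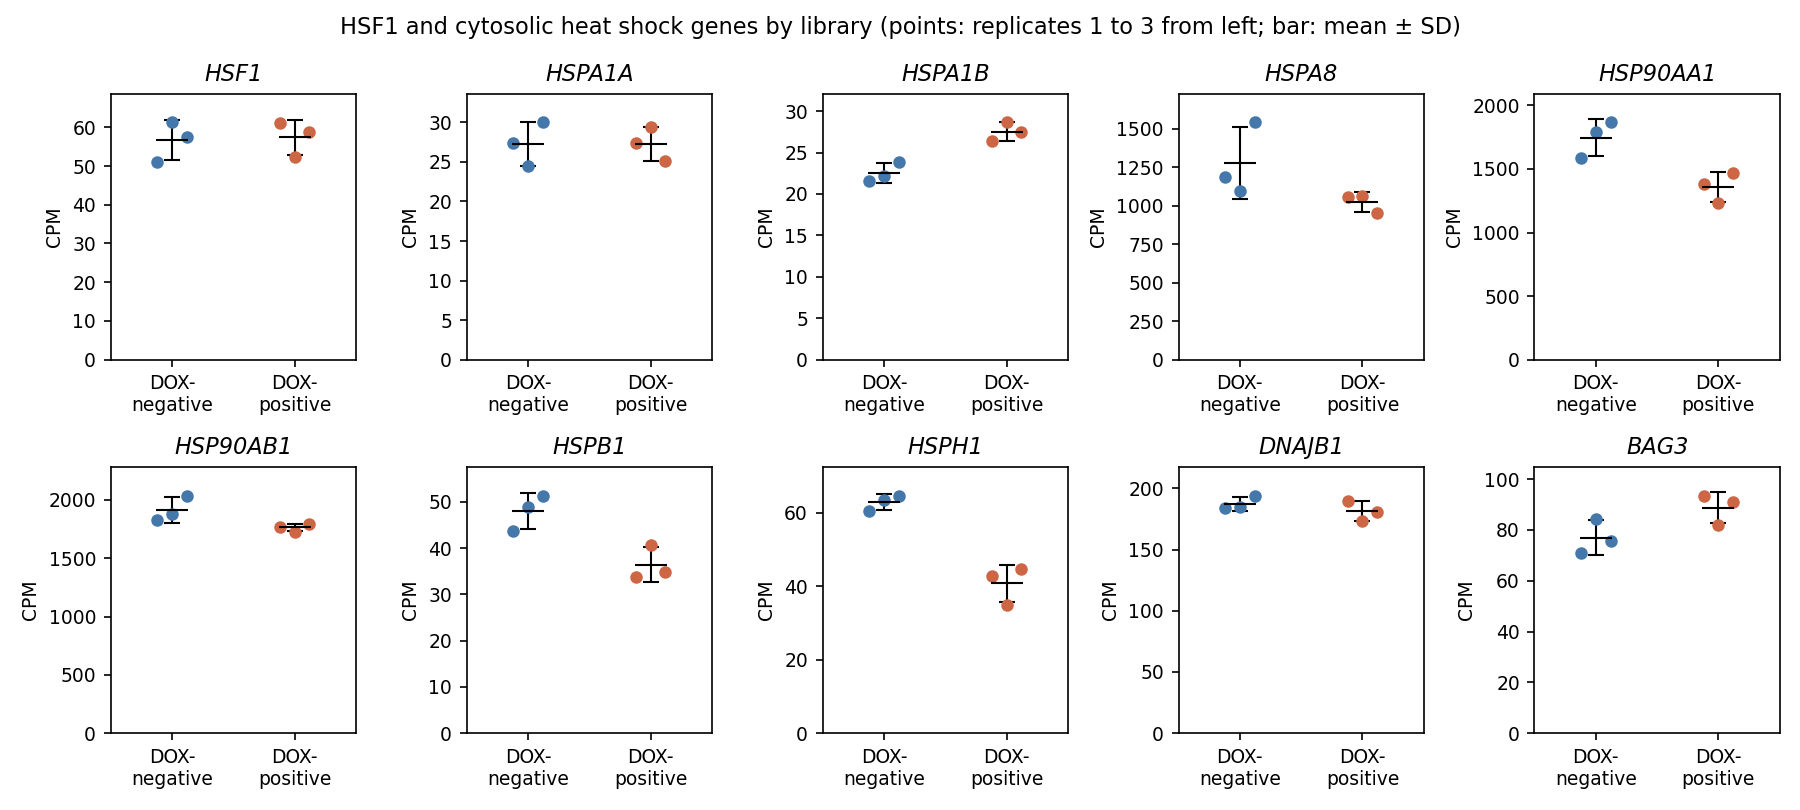
CPM (vertical axes, from 0) of HSF1 and the 9 heat shock genes in each library, with DOX-negative replicates 1 to 3 in blue and DOX-positive replicates 1 to 3 in orange, and the mean ± SD as black bars. HSPH1 shows the widest separation, from 62.9 to 40.8 CPM on average, while HSF1, HSPA1A and DNAJB1 overlap between groups.

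Promoter sequences are shown because the genes that fell and those that did not could be compared for the heat shock elements in them. The RefSeq windows of GRCh38.p14 cover 250 bases before to 50 after each annotated start, and 9 of the 10 genes had at least 1 window, 14 windows in all. The searched pairs of inverted units were GAANNTTC and TTCNNGAA, each its own reverse complement, so that both strands are covered. The searched triples were GAANNTTCNNGAA and TTCNNGAANNTTC, which are reverse complements of each other and contain 2 overlapping pairs. A pair was in the windows of 7 of the 9 genes, against 16.2% of 27305 gene symbols. A triple was in those of 3 genes, HSPA8, HSP90AA1 and HSP90AB1, against 0.608% of symbols. The genes had been picked as chaperones driven by HSF1, so a higher share than that of all symbols could follow from the choice alone. Among single windows, 13.5% of 35116 held a pair and 0.490% a triple. HSPH1 and BAG3 held neither, which says only that these letters were not in their windows.

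The stretches below carry the matches in capitals, read 5′ to 3′ on the strand of the gene, with the start base as position 0. The first 3 belong to the genes with a triple. HSPA8 is at chr11:123062146-123062225, minus strand, with a triple at -55 to -43 and another one farther upstream. HSP90AA1 is at chr14:102087081-102087160, minus strand, at the downstream one of its annotated starts, with a triple at -88 to -76 and a separate pair at -68 to -61. HSP90AB1 is at chr6:44247771-44247850, plus strand, with triples at -165 to -153 and -112 to -100. These lie at the most downstream of its annotated starts, and the windows of its other starts held no match. The others hold pairs only. HSPA1A at chr6:31815401-31815480, plus strand, and HSPA1B at chr6:31827597-31827676, plus strand, show how alike these neighbouring genes are. HSPB1 at chr7:76302455-76302534, plus strand, and DNAJB1 at chr19:14518416-14518495, minus strand, complete the set. The DNAJB1 stretch is at the middle one of its annotated starts. The most downstream one has another pair, not shown, and the most upstream one has none.
HSPA8: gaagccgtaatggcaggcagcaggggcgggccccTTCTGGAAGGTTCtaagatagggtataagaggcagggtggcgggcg
HSP90AA1: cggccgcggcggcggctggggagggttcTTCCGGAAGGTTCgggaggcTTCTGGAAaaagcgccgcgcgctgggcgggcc
HSP90AB1: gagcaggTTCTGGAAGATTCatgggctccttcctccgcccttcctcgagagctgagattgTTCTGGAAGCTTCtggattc
HSPA1A: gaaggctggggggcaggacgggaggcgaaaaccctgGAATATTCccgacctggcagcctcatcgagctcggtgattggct
HSPA1B: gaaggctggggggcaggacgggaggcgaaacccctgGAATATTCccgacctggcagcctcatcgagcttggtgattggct
HSPB1: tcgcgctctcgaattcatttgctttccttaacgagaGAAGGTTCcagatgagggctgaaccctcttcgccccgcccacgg
DNAJB1: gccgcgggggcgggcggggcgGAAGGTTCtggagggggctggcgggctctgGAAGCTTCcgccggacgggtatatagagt

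**Figure D2:**
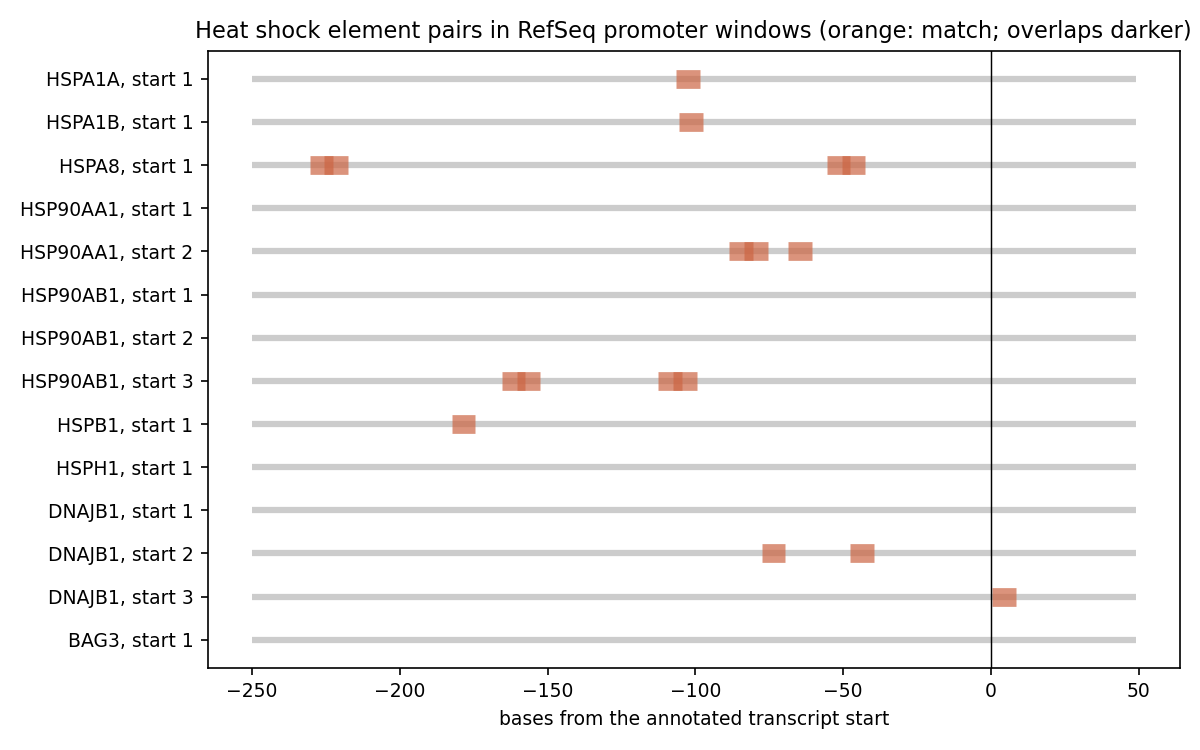
Positions of heat shock element pairs (orange) in the 14 RefSeq promoter windows of 9 genes, in bases from the annotated start; darker orange marks overlapping pairs, which form a triple. Matches are in the windows of 7 genes, and those of HSPH1 and BAG3 are empty.

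Of the genes with a triple, HSPA8 and HSP90AA1 fell, and HSP90AB1 had a log2 fold change of -0.12 that did not pass the test. All 3 were lower in every DOX-positive library than in any DOX-negative one. Such a lack of overlap, in either direction, was found for 39.8% of all genes tested. It was also found for HSPH1 and HSPB1, which hold no triple. A link between the elements and the changes was not tested. The pair-only genes held 1 that fell (HSPB1), 1 that rose (HSPA1B) and 2 that passed in neither direction (HSPA1A and DNAJB1). HSPH1, with no match in its window, had the largest change of the 10.

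HSPH1 (HSP110) is a large relative of HSP70 that acts as its nucleotide exchange factor and helps to dissolve aggregates. It was at 60.4, 63.4 and 64.7 CPM in DOX-negative replicates 1 to 3 and at 42.8, 35.0 and 44.6 CPM in the DOX-positive replicates. Every DOX-positive library was below every DOX-negative one. The mean went from 62.9 ± 2.20 to 40.8 ± 5.12 CPM (SD, n = 3 per group), with a log2 fold change of -0.63 ± 0.0883 (SE, 95% interval -0.81 to -0.44, edgeR adjusted p = 1.58e-05), a decrease of 35.2%. In the GENCODE 29 annotation of GRCh38 the gene spans chr13:31134974-31162388 on the minus strand.

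HSPB1 (HSP27) is the small heat shock protein of the set, which holds unfolding proteins in large oligomers without using ATP. Its DOX-negative values were 43.8, 48.9 and 51.4 CPM, and its DOX-positive values were 33.7, 40.7 and 34.8 CPM. The groups did not overlap, and DOX-positive replicate 2 came nearest to the DOX-negative libraries. The mean went from 48.0 ± 3.87 to 36.4 ± 3.80 CPM (SD, n = 3 per group), with a log2 fold change of -0.40 ± 0.0914 (SE, 95% interval -0.59 to -0.21, edgeR adjusted p = 0.00224).

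The HSP90 pair consists of HSP90AA1, the stress-inducible cytosolic isoform, and HSP90AB1, the constitutive one. HSP90AA1 was at 1582, 1789 and 1869 CPM in the DOX-negative replicates and at 1383, 1232 and 1466 CPM in the DOX-positive replicates, without overlap. Its mean went from 1747 ± 148 to 1360 ± 119 CPM (SD, n = 3 per group), with a log2 fold change of -0.36 ± 0.0747 (SE, 95% interval -0.52 to -0.21, edgeR adjusted p = 0.000976). HSP90AB1 was at 1824, 1882 and 2037 CPM in the DOX-negative replicates and at 1769, 1727 and 1794 CPM in the DOX-positive replicates. These values did not overlap either, but the gap between the nearest libraries was small against the spread of the DOX-negative group. The HSP90AB1 mean went from 1914 ± 110 to 1763 ± 33.6 CPM (SD, n = 3 per group), with a log2 fold change of -0.12 ± 0.0644 that edgeR did not call (adjusted p = 0.184). Its 95% interval, from -0.25 to 0.02, leaves out decreases as large as that estimated for HSP90AA1.

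The balance within the HSP90 pair can be read inside each library, where scaling between libraries has no part. HSP90AA1 made up 46.5%, 48.7% and 47.8% of the counts of the pair in DOX-negative replicates 1 to 3 and 43.9%, 41.6% and 45.0% in the DOX-positive replicates. All 3 DOX-positive shares were below all 3 DOX-negative shares, with means of 47.7% ± 1.15 and 43.5% ± 1.71 (SD, n = 3 per group). The exact two-sided permutation test gave p = 0.1, the smallest value that 3 against 3 libraries allow. Rows of related sequence took few reads, with the pseudogene HSP90AB4P between 0 and 10 counts per library.

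**Figure D3:**
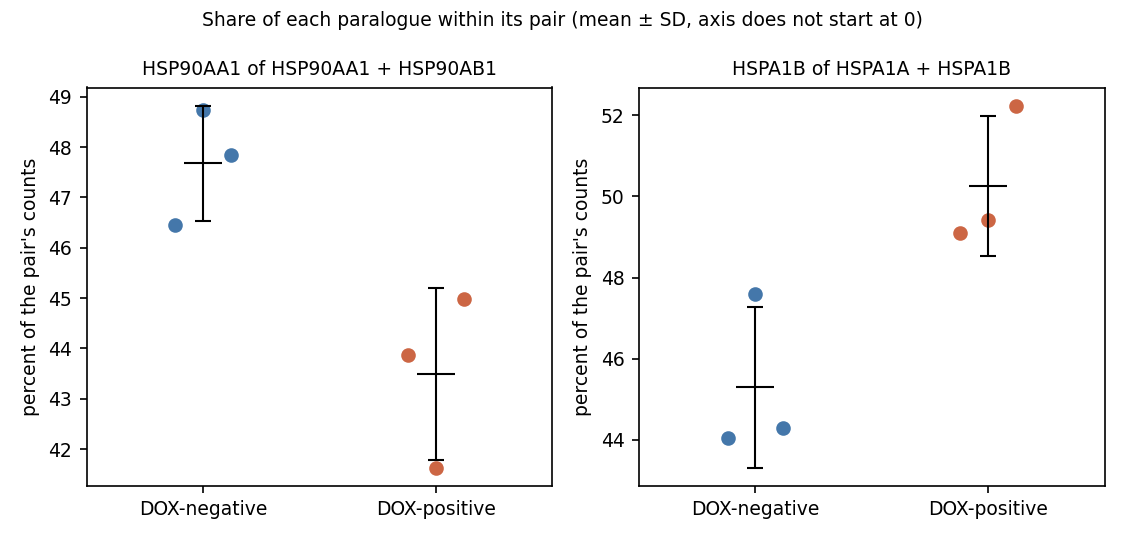
Share of HSP90AA1 in the counts of HSP90AA1 and HSP90AB1 (left) and of HSPA1B in those of HSPA1A and HSPA1B (right), in percent, with 1 point per library (DOX-negative in blue, DOX-positive in orange) and the mean ± SD; the axes do not start at 0. The HSP90AA1 share was lower (43.5% against 47.7%) and the HSPA1B share higher (50.3% against 45.3%) in the DOX-positive libraries, without overlap, each with the smallest p that the exact test allows.

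HSPA8 (HSC70) is the constitutive cytosolic HSP70, which folds new proteins and uncoats clathrin vesicles. It was at 1187, 1098 and 1543 CPM in DOX-negative replicates 1 to 3 and at 1058, 1061 and 952 CPM in the DOX-positive replicates. DOX-negative replicate 3 stood far above the other 5 libraries, and the nearest libraries of the groups were only 1098 and 1061 CPM. The mean went from 1276 ± 236 to 1024 ± 62.2 CPM (SD, n = 3 per group), with a log2 fold change of -0.32 ± 0.0908 (SE, 95% interval -0.51 to -0.13, edgeR adjusted p = 0.0121). Without DOX-negative replicate 3 the log2 fold change was -0.16 and edgeR no longer called it (adjusted p = 0.107). The call was also lost without DOX-positive replicate 3 (log2 fold change -0.27, edgeR adjusted p = 0.0651) and with DESeq2 on all 6 libraries (-0.31, adjusted p = 0.156).

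HSPA1A and HSPA1B encode the heat-inducible HSP70 and lie next to each other on chromosome 6, HSPA1A at chr6:31815464-31817946 and HSPA1B at chr6:31827735-31830255, both on the plus strand (GENCODE 29, GRCh38). Their coding sequences, 1926 bases each, differ at 4 bases (99.8% identity), and 69.9% of the 2384 windows of 100 bases in the HSPA1A transcript also occur in that of HSPA1B. The split of reads between the pair is therefore uncertain, and so is their level, since how reads matching both were counted is not given. HSPA1A was at 27.4, 24.4 and 30.0 CPM in the DOX-negative replicates and at 27.4, 29.4 and 25.1 CPM in the DOX-positive replicates, which overlapped fully. Its mean was 27.3 CPM in each group (SD 2.80 and 2.14, n = 3 per group), and its 95% interval allowed folds between 0.867 and 1.16 (edgeR adjusted p = 0.994). HSPA1B was at 21.5, 22.2 and 23.9 CPM in the DOX-negative replicates and at 26.4, 28.7 and 27.4 CPM in the DOX-positive replicates, without overlap. Its mean went from 22.5 ± 1.22 to 27.5 ± 1.14 CPM (SD, n = 3 per group), with a log2 fold change of 0.29 ± 0.0944 (SE, 95% interval 0.09 to 0.48, edgeR adjusted p = 0.0281).

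The HSPA1B share of the counts of the pair was 44.0%, 47.6% and 44.3% in DOX-negative replicates 1 to 3 and 49.1%, 49.4% and 52.2% in the DOX-positive replicates. The means were 45.3% ± 1.99 and 50.3% ± 1.73 (SD, n = 3 per group; exact two-sided permutation p = 0.1, the smallest possible). With both genes summed, the log2 fold change was 0.14 ± 0.0811 (SE), which edgeR did not call (adjusted p = 0.226). The call of HSPA1B alone was lost in 4 of the 6 fits with 1 library left out (without DOX-negative replicate 1 or 2 or DOX-positive replicate 2 or 3; edgeR adjusted p between 0.0671 and 0.116), with unscaled total counts (adjusted p = 0.0523) and with a replicate block (adjusted p = 0.0512). It was lost as well in limma on TPM rescaled without 5 short noncoding RNAs, where none of the 10 genes was called higher. In the deposited TPM the log2 fold change of HSPA1B turned to -0.079 and -0.10 (limma with a pseudocount of 1 and of 0.1). The median of all genes there was at -0.32 and -0.39. The related rows were low in every library, with HSPA1L at 14 to 35 counts, HSPA6, the strictly heat-induced family member, at 5 or fewer, and HSPA7 at 0.

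The deposited TPM values placed the HSPA1 pair lower than their counts did. The transcript length implied by the ratio of counts to TPM was 17362 bases for HSPA1A and 18030 for HSPA1B, that is 6.99 and 7.15 times the annotated exon length, against 0.521 to 1.28 times for the other 8 genes. Among 9778 genes with at least 100 counts in every library, 73 (0.747%) exceeded 5 times, and they included 57 of the 106 such genes on chromosome 6 between 27 and 34 Mb, the region that holds the pair. The reason was not tested. Levels of HSPA1A and HSPA1B are therefore given from the counts.

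DNAJB1 (HSP40) is a J protein that delivers clients to HSP70 and stimulates its ATPase. Its values were 184, 185 and 194 CPM without DOX and 190, 173 and 181 CPM with DOX, and the groups overlapped. The mean was 188 ± 5.80 and 181 ± 8.21 CPM (SD, n = 3 per group), and the 95% interval of the log2 fold change ran from -0.18 to 0.08 (edgeR adjusted p = 0.622).

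BAG3 exchanges nucleotide on HSP70 and steers clients to autophagy together with small heat shock proteins. It was at 71.0, 84.4 and 75.6 CPM in the DOX-negative replicates and at 93.6, 81.8 and 91.0 CPM in the DOX-positive replicates. The groups overlapped through replicate 2 of each, the highest DOX-negative library and the lowest DOX-positive one. The mean was 77.0 ± 6.82 and 88.8 ± 6.19 CPM (SD, n = 3 per group), with a log2 fold change of 0.21 ± 0.0785 (SE, 95% interval 0.04 to 0.37) that did not pass (edgeR adjusted p = 0.0563). It passed without DOX-negative replicate 2 (0.28, adjusted p = 0.0158), without DOX-positive replicate 2 (0.26, adjusted p = 0.0166) and with no filter on low counts (adjusted p = 0.0414).

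HSF1, the transcription factor itself, was at 51.0, 61.4 and 57.6 CPM in the DOX-negative replicates and at 61.0, 52.3 and 58.8 CPM in the DOX-positive replicates. The groups overlapped over most of their range. The mean was 56.7 ± 5.23 and 57.4 ± 4.54 CPM (SD, n = 3 per group), and the 95% interval allowed folds between 0.896 and 1.14 (edgeR adjusted p = 0.908). The transcript level does not measure HSF1 activity, which is set largely by trimerization, phosphorylation and binding partners.

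**Figure D4:**
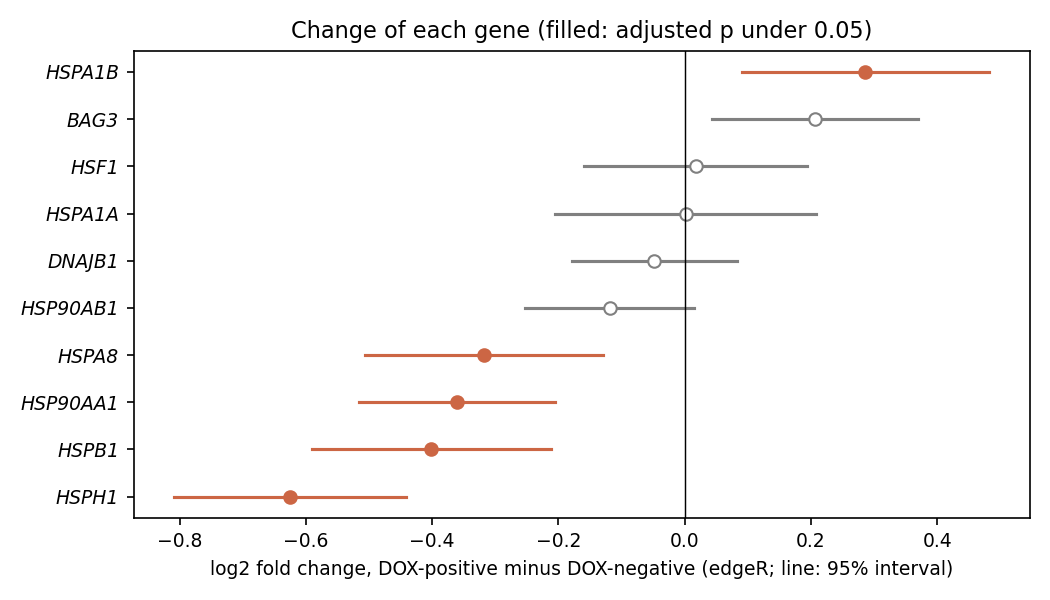
Log2 fold change (DOX-positive minus DOX-negative, edgeR, n = 3 per group) of each of the 10 genes with its 95% interval; filled orange points have an adjusted p under 0.05 and open grey points do not. The estimates run from -0.63 for HSPH1 to 0.29 for HSPA1B, and 4 filled points lie below 0 and 1 above. The HSPA1B call is lost with total counts, a replicate block or rescaled TPM, and in most fits with 1 library left out.

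Levels can be compared between genes only per length, and the order depends on the length used. Per kilobase of annotated exon (all exons of a gene merged), HSP90AB1 was at 642 ± 37.0 CPM per kilobase in DOX-negative cells, HSP90AA1 at 333 ± 28.2 and HSPA8 at 263 ± 48.6 (SD, n = 3), and HSP90AA1 and HSPA8 overlapped in their replicates. DNAJB1 was at 51.0 ± 1.58, HSPB1 at 29.4 ± 2.37 and BAG3 at 28.0 ± 2.48 CPM per kilobase, and HSPB1 and BAG3 overlapped. HSPA1A was at 11.0 ± 1.13, HSF1 at 10.7 ± 0.986, HSPA1B at 8.93 ± 0.482 and HSPH1 at 7.49 ± 0.262 CPM per kilobase, with HSPA1A and HSF1 overlapping. In DOX-positive cells the values were 591 ± 11.3 for HSP90AB1, 259 ± 22.6 for HSP90AA1, 211 ± 12.8 for HSPA8, 49.4 ± 2.23 for DNAJB1, 32.3 ± 2.25 for BAG3, 22.3 ± 2.33 for HSPB1 and 4.86 ± 0.609 CPM per kilobase for HSPH1.

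The deposited TPM used shorter lengths for HSF1, HSPA8 and HSPB1, 0.521, 0.657 and 0.552 times the merged exon length. For HSPA8 and HSPB1 they gave another order. HSPA8 was at 689, 870 and 659 TPM in DOX-negative replicates 1 to 3 and at 431, 488 and 441 TPM in the DOX-positive replicates, above HSP90AA1 in every library (528, 813 and 458 TPM, then 323, 326 and 390 TPM). HSPB1 was at 89.8, 137 and 77.4 TPM without DOX and at 48.6, 66.2 and 56.8 TPM with DOX, above BAG3 in every library (39.3, 63.7 and 30.7 TPM, then 36.3, 35.9 and 40.1 TPM). The deposited TPM also placed HSPA1A and HSPA1B below HSF1 and HSPH1 in every library. The orders of HSPA8 against HSP90AA1 and of HSPB1 against BAG3 and DNAJB1 are thus not settled here. Nor are those of the HSPA1 pair against HSF1 and HSPH1, where the counting of reads shared by the pair is also not known. HSP90AB1, in contrast, was the highest of the 10 genes in every library on both scales.

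The 10 genes together held 0.511%, 0.540% and 0.592% of all counts in DOX-negative replicates 1 to 3 and 0.462%, 0.441% and 0.461% in the DOX-positive replicates. The means were 0.548% ± 0.0406 and 0.455% ± 0.0117 (SD, n = 3 per group). HSP90AB1, HSP90AA1 and HSPA8 make up most of this sum.

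The wider chaperone network was described with 9 lists of 121 other genes, of which 108 were tested. In edgeR 43 of them passed (39.8%, against 26.7% of all genes tested), 16 higher and 27 lower in the DOX-positive cells, with a median log2 fold change of -0.08. With unscaled total counts 11 were higher and 33 lower. Without DOX-negative replicate 3, the library in which HSPA8 stood apart, 29 passed, 13 higher and 16 lower. The rises of DNAJB6, DNAJC5, FNIP1, PFDN1, HSPA9, HSPA5 and DNAJC3 given next turned to values below 0 in limma on log2(TPM + 1) of the deposited TPM, all of them above the median of all genes there.

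**Figure D5:**
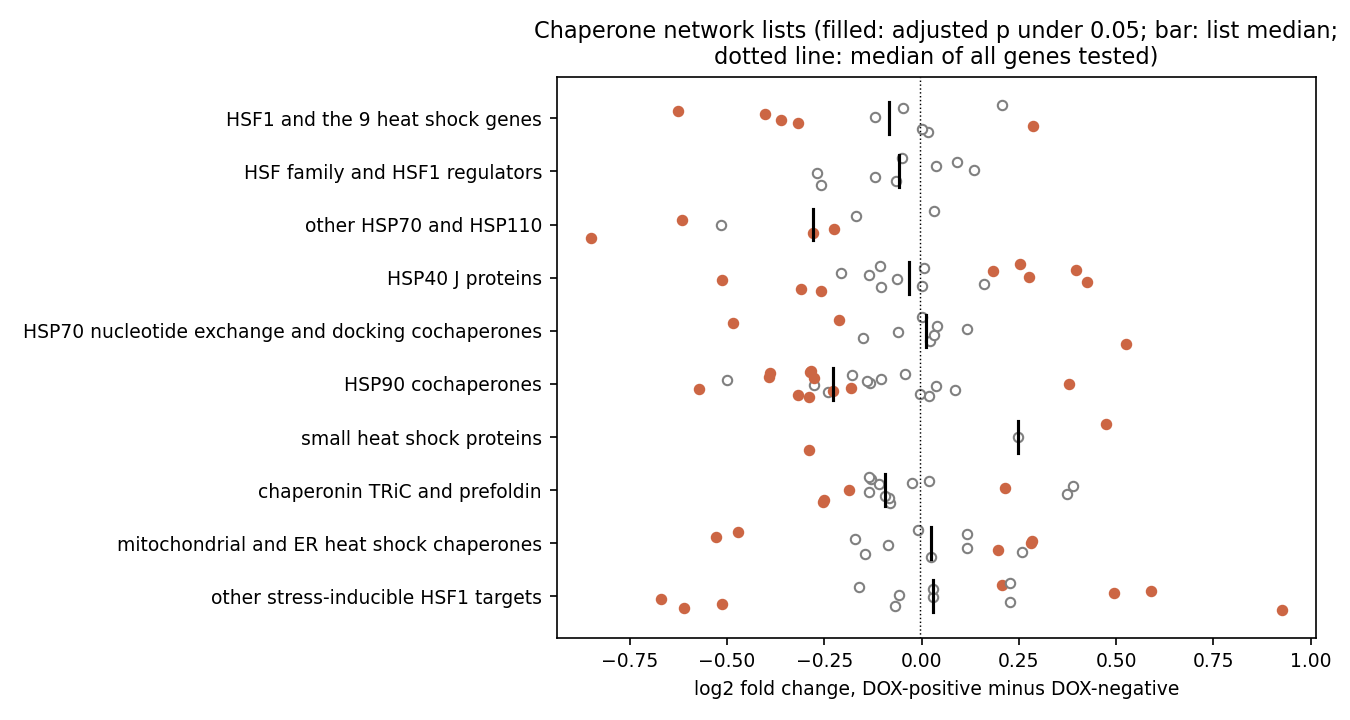
Log2 fold changes (DOX-positive minus DOX-negative, edgeR, n = 3 per group) of HSF1 and the 9 heat shock genes and of the tested genes in 9 chaperone network lists; filled orange points have an adjusted p under 0.05, black bars mark list medians and the dotted line the median of all genes tested. HSP90 cochaperones show 10 filled points below 0 and 1 above, J proteins 3 below and 5 above. Of all genes tested, 26.7% passed.

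Among other HSF family genes and known partners or regulators of HSF1, edgeR called 0 of 8 tested (2 at unadjusted p under 0.05). DESeq2 also called 0 (2 unadjusted). The share of all genes called by edgeR was 26.7%, and 8 genes are few to set against it. The edgeR log2 fold changes of the 8 lay between -0.27 and 0.13. HSF2, a factor that can form mixed trimers with HSF1 and is named here after its values were seen, had the lowest of these values (edgeR adjusted p = 0.0646).

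Among other HSP70 and HSP110 genes, 4 of 7 tested fell and none rose (57.1% called, against 26.7% of all genes), with a median log2 fold change of -0.28. HSPA12A, a distant HSP70 relative, went from 15.7 ± 1.25 to 8.71 ± 0.860 CPM (SD, n = 3 per group; log2 fold change -0.85 ± 0.127 SE, edgeR adjusted p = 3.31e-05). HSPA2, best known from spermatogenesis, had a log2 fold change of -0.62 (edgeR adjusted p = 0.00126), and HSPA13, a microsomal HSP70, had one of -0.28 (adjusted p = 0.00255).

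J proteins changed in both directions, around a median of -0.03. Of 16 tested, 5 were higher and 3 lower (50% called, against 26.7% of all genes). DNAJB4, the closest relative of DNAJB1 among those called, went from 113 ± 5.86 to 79.1 ± 6.38 CPM (SD, n = 3 per group; log2 fold change -0.51 ± 0.0741 SE, edgeR adjusted p = 2e-05). DNAJA2 and DNAJA1, the type A partners of cytosolic HSP70, had log2 fold changes of -0.31 (edgeR adjusted p = 0.00164) and -0.26 (adjusted p = 0.0197). DNAJB2 (0.43, adjusted p = 0.0427, groups overlapping), DNAJC5, the cysteine string protein (0.40, adjusted p = 0.000403), and DNAJB6, a suppressor of polyglutamine aggregation (0.28, adjusted p = 0.00403), rose in edgeR.

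Of the 10 nucleotide exchange and docking cochaperones of HSP70, 2 fell and 1 rose, a share of 30.0% that is near the 26.7% of all genes. ST13 (HIP), which stabilizes the ADP-bound state of HSP70, went from 183 ± 2.22 to 131 ± 1.61 CPM (SD, n = 3 per group; log2 fold change -0.49 ± 0.0613 SE, edgeR adjusted p = 3.83e-06). STIP1 (HOP), which bridges HSP70 and HSP90, had a log2 fold change of -0.21 (edgeR adjusted p = 0.0220). BAG1, an exchange factor of the same family as BAG3, rose from 28.6 ± 1.64 to 41.2 ± 1.10 CPM (SD, n = 3 per group; log2 fold change 0.53; edgeR adjusted p = 8.54e-05).

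In the list of HSP90 cochaperones, 10 of 23 tested genes were lower and 1 was higher (47.8% called, against 26.7% of all genes). The median log2 fold change of the 23 was -0.23. FKBP4, an immunophilin of steroid receptor complexes, went from 62.3 ± 3.28 to 41.9 ± 2.25 CPM (SD, n = 3 per group; log2 fold change -0.57 ± 0.0794 SE, edgeR adjusted p = 1.29e-05). RPAP3, a subunit of the R2TP complex, and SUGT1, an adaptor of immune receptors and kinetochores, each had a log2 fold change of -0.39 (edgeR adjusted p = 0.000456 and 0.00573). FNIP1, a folliculin partner that slows the HSP90 ATPase, rose (0.38, edgeR adjusted p = 0.000586). The other 7 that fell had log2 fold changes between -0.32 and -0.18.

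Genes listed as small heat shock proteins other than HSPB1 were mostly at or near 0 counts, and 3 of the 9 were tested. CRYAB, the lens and muscle crystallin, had at most 1 count in a library. HSPB8, the partner of BAG3, went from 16.0 ± 2.64 to 22.2 ± 1.59 CPM (SD, n = 3 per group). Its log2 fold change was 0.47 ± 0.119 (SE, edgeR adjusted p = 0.00475). HSPB11, which the list holds by its symbol, had a log2 fold change of -0.29 (edgeR adjusted p = 0.0432). HSPB8 thus rose while HSPB1 fell.

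In the cytosolic chaperonin TRiC and prefoldin, 3 of 15 tested genes fell and 1 rose, and the share called, 26.7%, is that of all genes tested. The TRiC subunits CCT3 and CCT4 each had a log2 fold change of -0.25 (edgeR adjusted p = 0.0148 and 0.00607) and CCT8 one of -0.19 (adjusted p = 0.0380), while the prefoldin subunit PFDN1 was at 0.21 (adjusted p = 0.0296).

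Chaperones of mitochondria and the endoplasmic reticulum (ER) moved both ways. Of 13 tested, 3 were higher and 2 lower (38.5% called, against 26.7% of all genes). HSPA9, the mitochondrial HSP70, rose from 673 ± 25.9 to 819 ± 47.5 CPM and HSPA5 (BiP), the ER HSP70, from 673 ± 17.0 to 817 ± 16.9 CPM (SD, n = 3 per group), each with a log2 fold change of 0.28 (edgeR adjusted p = 0.00194 and 0.00127). DNAJC3, an ER J protein, rose (0.20, edgeR adjusted p = 0.0322), and HSPE1, the mitochondrial cochaperonin, and SERPINH1, the ER chaperone of collagen, fell (-0.53, adjusted p = 0.00387, and -0.47, adjusted p = 0.00151).

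Of 14 tested genes in the list of other stress-inducible HSF1 targets, 4 rose and 3 fell, around a median of 0.03. The share called was 50%, against 26.7% of all genes. ATF3, a stress-induced transcription factor, went from 14.0 ± 1.83 to 26.5 ± 3.79 CPM (SD, n = 3 per group; log2 fold change 0.92 ± 0.122 SE, edgeR adjusted p = 6.95e-06). RGS2, a regulator of G protein signalling (0.59, adjusted p = 0.000274), and PPP1R15A (GADD34), which restores translation after stress (0.49, adjusted p = 2.24e-05), also rose in edgeR. HMOX1, heme oxygenase (-0.67, edgeR adjusted p = 0.00424), CLU, the secreted chaperone clusterin (-0.61, adjusted p = 3.62e-06), and DNAJB4, which is also in the J protein list, fell. ATF3, PPP1R15A and HMOX1 answer to other stress pathways as well as to HSF1.

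Over the 6 libraries, the genes whose centred log2 CPM lay closest to that of HSPA1A and HSPA1B summed, among 12353 compared, were GSTK1, ROR1, PXK, PEX19 and MAP4K3, with root mean square differences between 0.0131 and 0.0221 log2 units. Their edgeR adjusted p lay between 0.0611 and 0.250.

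An earlier scan of these data found genes with the heptamer ATCAGTA in the 3′UTR to be lower in DOX-positive cells: 32.6% of 1210 such genes were called lower, against 13.2% of 10889 genes without it. These shares come from the same data as the scan and are no independent check of it. None of the 10 heat shock genes held the heptamer in the 3′UTR or upstream of it in the annotated transcript. Only 10.0% of the genes compared held it in the 3′UTR, so its absence from 10 genes is unremarkable. HSPH1, HSPB1, HSP90AA1 and HSPA8 are thus among the genes lower without it, and the reason was not tested.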

How the data were processed

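The members and gene lists were chosen with earlier results of these data known. Total RNA from triplicate cultures was made into TruSeq Stranded mRNA libraries. The authors deposited whole-number read counts per gene and, in a second table, TPM values; the submitters' processing notes name STAR, DESeq2 and GRCh38/hg38, while versions, annotation, counting step and use of strand are not given in the sources used here. The fold changes and p-values of the study were not used. Groups came from sample titles; column names write TR where titles write DR, with the same DOX state and number. Each library was counted as its own replicate (chi-square per degree of freedom between 3.65 and 19.0 within groups), and p-values measure the spread between these cultures. The 95% intervals of fold changes come from the edgeR fit and include the spread between cultures, whereas the 3-count floor covers counting error only.

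Counts were tested with edgeR 4.0.16 under R 4.3.3 (filterByExpr, TMM factors between 0.986 and 1.03, glmQLFit and glmQLFTest, two-sided), with Benjamini-Hochberg adjustment over all 14292 genes tested and a threshold of 0.05. CPM use the TMM-scaled totals. Named genes were the 10 members, MUC1, related rows, up to 3 largest rises and falls per list (adjusted p under 0.05, average logCPM of at least 1), and the 5 genes most like the HSPA1 sum. Promoter windows and names came from RefSeq GRCh38.p14, gene spans and exon lengths from GENCODE 29. Alternatives, 17 for each member (16 for HSPA1A and HSPA1B, which the summed fit merges), were RLE factors, total counts, DESeq2 1.42.0, a minimum of 10 counts in every library or no filter, a replicate block, limma 3.58.1 on log2(TPM + 1), on log2(TPM + 0.1) and on TPM rescaled without 5 short noncoding RNAs, thinned counts, summed near-identical genes, and each library left out; counts of calls were also made with a log2 fold change of at least 1. Fold changes of TPM are on the log2(TPM + pseudocount) scale. The scripts were tested on simulated data. Some genes are not reported here.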

Additional observations from a re-analysis of the deposited data

How the results depend on the processing

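HSPH1, HSP90AA1 and HSPB1 stayed lower and past the threshold in every fit to counts, and lost the call only with limma on deposited TPM (adjusted p between 0.0528 and 0.109). In those TPM, 5 short noncoding RNAs held 34.4% (DOX-negative replicate 2) to 64.4% of a library, and the median of all genes shifted by -0.32 with log2(TPM + 1) and by -0.39 with log2(TPM + 0.1). The counts of calls fell to 443 and 408 genes, 0 and 0 heat shock genes and 3 and 3 network genes, from 3816, 5 and 43; 6.77% and 7.11% of calls were higher, against 48.8%. Under these 2 fits log2 fold changes were negative, though above that median unless stated, for HSPA1B (-0.079, -0.10), BAG3 (-0.18, -0.19), DNAJB6 (-0.12, -0.12), FNIP1 (-0.019, -0.018), PFDN1 (-0.18, -0.18), HSPA9 (-0.11, -0.11), HSPA5 (-0.11, -0.11), DNAJC3 (-0.19, -0.20), DNAJC5 (-0.000413 with the first), HSPA1A (-0.28, -0.38) and, below the median with the first, HSF1 (-0.36, -0.37). With rescaled TPM 3097 genes and 4 members passed. Of all calls 43.0% were higher, but the 4 members were all lower, so the HSPA1B call was lost.

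HSF1 and HSPA1A, both near 0 throughout, also changed sign with total counts (-0.018, -0.032) and rescaled TPM (-0.0054, -0.020), and HSPA1A with at least 10 counts in every library (-0.00245); with 1 library left out they ran from -0.052 to 0.080 and from -0.071 to 0.078. Total counts gave 39.3% higher among 3836 calls. Requiring a log2 fold change of at least 1 left 368 genes, 0 of the 10 heat shock genes and 0 network genes. With 1 library left out, 3 to 5 of the 10 genes, 2784 to 3645 genes and 29 to 42 network genes passed; the lowest count, 3, came without DOX-positive replicate 3. With the replicate block 4 of the 10 genes, 33 network genes and 3158 genes passed. Deviations of same-numbered libraries correlated at -0.07, -0.14 and -0.04. These values give no sign that the numbers pair the samples, but with 3 libraries per group they cannot exclude it. The causes were not tested. Depth limits HSPA6, HSPA7 and CRYAB, at or near the 3-count floor.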
